A study of Mus musculus with 33 samples.

Results

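The comparison described here is that of Mef2c-cKO mice with *Mef2c* f/f mice in control sleep (CS), the condition in which mice slept freely. Its members are the 12681 genes, of 21565 in the table, that had at least 1 CPM (reads of the gene per 1000000 reads of the library) in all libraries of one or both groups. It uses 7 of the 33 libraries of the study, 4 from *Mef2c* f/f mice and 3 from Mef2c-cKO mice, and each library is frontal cortex RNA of an adult male mouse on a C57BL/6J background. *Mef2c* f/f mice carry loxP sites on both sides of the second coding exon of *Mef2c*. Mef2c-cKO mice carry the same floxed alleles and a Camk2a-Cre transgene (line T29-1), which is active after birth in excitatory neurons of the forebrain. All 7 mice therefore share the loxP sites, and no group carried Cre alone, so an effect of Cre or of the transgene's position cannot be told apart from that of the deletion. The study describes most, but not all, of the Mef2c-cKO mice in CS as carrying a *Mef2c* allele already recombined in the germ line, and the labels do not name their libraries. A loss of 1 *Mef2c* allele in all cells from early development on cannot be told apart here from the deletion in excitatory neurons. The libraries of mice deprived of sleep for 6 hr (SD; 3 *Mef2c* f/f and 3 Mef2c-cKO) and of wild-type mice (WT; 6 CS and 7 SD) are used only beside this comparison, and 7 WT libraries of recovery sleep served only in setting the scaling.

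MEF2C is a transcription factor of the MADS-box family, which binds AT-rich sites as a dimer with itself or with its relatives MEF2A and MEF2D. In neurons its activity is held down by class IIa histone deacetylases and released by the calcium-dependent phosphatase calcineurin, so that it links activity to transcription. It is known for limiting the number of excitatory synapses and for a role in the development of the cortex.

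The floxed exon encodes much of the DNA-binding part of the protein, and it is shown because its removal is the only engineered difference in *Mef2c* itself between the groups. In GRCm38 it lies at chr13:83592778-83592981 on the plus strand. It is 204 bases long and is present in 16 of 18 coding models of the gene in GENCODE M21. Its length is 68 codons with 0 bases over. It is printed in lower case throughout, 5′ to 3′.

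Mef2c floxed exon: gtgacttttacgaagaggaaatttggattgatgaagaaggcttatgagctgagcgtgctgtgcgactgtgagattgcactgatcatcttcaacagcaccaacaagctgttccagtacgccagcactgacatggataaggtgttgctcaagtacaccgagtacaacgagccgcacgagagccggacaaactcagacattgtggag

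Reads per library were 18935045 to 40576940 in *Mef2c* f/f and 34597589 to 38312401 in Mef2c-cKO, and no pair of replicates was a duplicate. All levels below are CPM rescaled by factors of the median-of-ratios kind, which were 0.986 to 1.14 in these 7 libraries. Fold changes are Mef2c-cKO relative to *Mef2c* f/f on the log2 scale after adding 0.5, tested with limma, and a gene was called a differentially expressed gene (DEG) when its p after Benjamini-Hochberg adjustment was 0.05 or lower and its log2 fold change was 0.3 or more in size. The labels do not say whether mice of a group shared a litter or a preparation, so p-values measure the spread between these libraries. The first principal component held 50.7% of the variance and separated the genotypes, and Mef2c-cKO replicate 08 lay farther out on it (-43.5) than replicates 05 and 07 (-15.9 and -16.1). Genes at 1 rescaled CPM or more numbered 12501 ± 21.2 (SD, n = 4) in *Mef2c* f/f and 12862 ± 171 (n = 3) in Mef2c-cKO. The difference of 361 genes had a two-sided exact permutation p of 0.0571, the smallest that groups of 4 and 3 allow.

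Cortical excitatory neuron genes were abundant in all 7 libraries. The summed level of 13 such genes was 5204 to 5696 rescaled CPM in *Mef2c* f/f and 4371, 5650 and 5716 in Mef2c-cKO replicates 05, 07 and 08. Genes of neighbouring tissue varied between single libraries. Markers of choroid plexus and ependyma summed to 339 in Mef2c-cKO replicate 05 and to 14.4 to 24.5 in the other 6 libraries. Markers of microglia and macrophages summed to 924 in Mef2c-cKO replicate 08, to 293 and 355 in replicates 05 and 07, and to 237 to 278 in *Mef2c* f/f. Markers of the olfactory bulb and its neuroblasts summed to 717 in *Mef2c* f/f replicate 03, to 285 to 317 in the other 3 floxed libraries, and to 412 to 619 in Mef2c-cKO.

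*Mef2c* itself (chr13:83504034-83667080) was not called lower in the knockout libraries when all reads of the gene were counted. It stood at 1205, 1096, 1201 and 1079 in *Mef2c* f/f replicates 01 to 04 and at 955, 1606 and 1724 in Mef2c-cKO replicates 05, 07 and 08. Knockout replicate 05 was thus below the floxed range and the other two above it. This gives 0.27 ± 0.20 (SE) on the log2 scale, with an adjusted p of 0.382, and after SD the value was 0.05 (adjusted p = 0.820). With array quality weights the CS value was 0.50 with an adjusted p of 0.00311. The count covers the exons outside the loxP sites as well, and tissue of frontal cortex also holds cells without the Cre transgene's activity, so this value checks neither the deletion nor the labels. The study itself reports a partial drop of the floxed exon in Mef2c-cKO samples from exon usage. It also reports the recombined allele by PCR in all Mef2c-cKO brain samples.

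Of the 12681 genes tested, 402 DEGs were higher in Mef2c-cKO (3.17% of genes tested) and 571 were lower (4.5%). The counts of DEGs in each gene list below stand beside these shares. The lists of channels and synapses hold many long genes. In the longest of 5 bins of genes by genomic span, described below, 12.9% of genes fell and 2.65% rose. The groups did not overlap for 972 of these 973 DEGs, beside 26.9% of all genes tested. Passing the test with 4 and 3 libraries favours genes without overlap, so this count is no separate support. Before adjustment 3557 genes had a p of 0.05 or lower, beside 634 that uniform p-values would give. Counts before adjustment in the gene lists below stand beside this share of 3557 in 12681. The 12681 log2 fold changes had a median of 0.03, and the median size of the change among DEGs was 0.58. Changes of at least 1 on the log2 scale numbered 106 among the rises and 46 among the falls. Genes near 0 in a group were tested only because they passed the filter in the other group, which 3 libraries do more easily than 4. This favours large rises from near 0, so the counts of large changes are no result about direction. With at least 5 CPM in every compared library 294 DEGs were higher and 563 lower, and large changes were not counted there. The count depended on single libraries, with 171 DEGs without Mef2c-cKO replicate 07, 175 without *Mef2c* f/f replicate 02, 543 without *Mef2c* f/f replicate 03, 544 without Mef2c-cKO replicate 05 and 611 without Mef2c-cKO replicate 08. Of the 150 DEGs covered by the rules for naming genes, 41 were DEGs in all 7 fits that each left out 1 library, 98 were lost without Mef2c-cKO replicate 07 and 98 without *Mef2c* f/f replicate 02. A DEG named below was lost in 1 or more of these fits unless it is said to have held in all 7. The balance of rises and falls depended on the scaling, since 41.3% of DEGs were rises after rescaling and 71.8% with CPM as deposited, under which the median of all genes was 0.13.

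**Figure D1:**
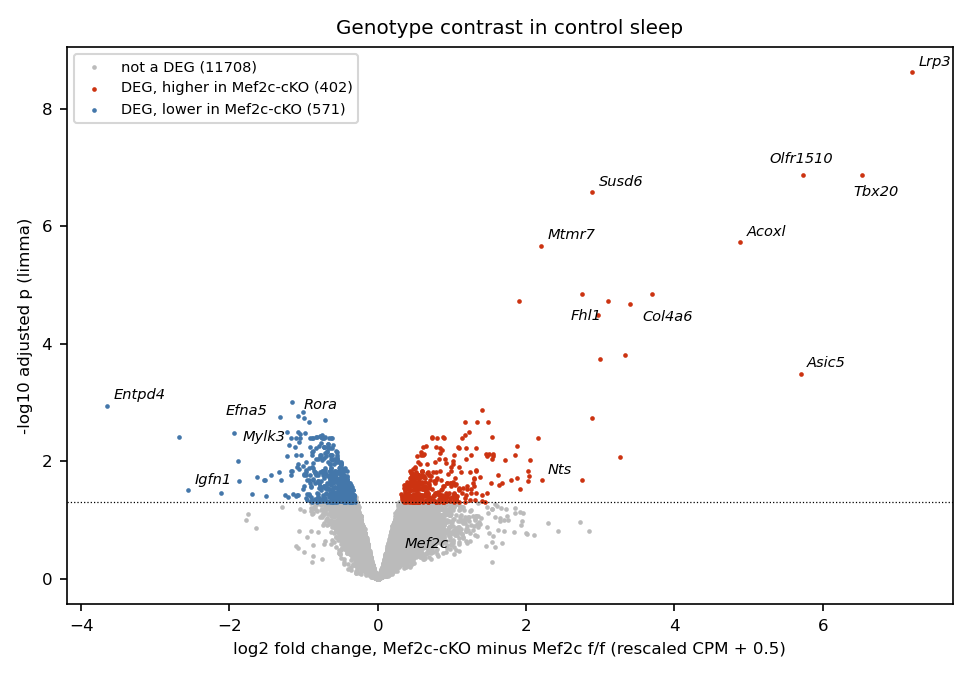
Each point is 1 of the 12681 genes tested in CS, placed by its log2 fold change (Mef2c-cKO minus Mef2c f/f, rescaled CPM + 0.5) and by the −log10 of its adjusted p from limma. The dotted line is an adjusted p of 0.05. The 402 rises reach a log2 fold change of 7.21 (Lrp3) and the falls reach -3.65 (Entpd4), while Mef2c lies at 0.27 below the line.

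The largest fitted log2 fold change, on the scale of log2(rescaled CPM + 0.5), was that of *Lrp3*. This gene, a member of the low-density lipoprotein receptor family on chromosome 7 of GRCm38 (chr7:35200027-35215498), stood at 34.05, 42.9, 39.6 and 45.2 in the 4 *Mef2c* f/f libraries and at 6413, 5916 and 5757 in the 3 Mef2c-cKO libraries. The groups were far apart, and the level was about 148 times higher (log2 fold change 7.21 ± 0.11, adjusted p = 2.39e-09). WT libraries in CS ranged from 20.4 to 61.0 for *Lrp3*. After SD its log2 fold change was 7.33 in other mice.

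A few genes with 0 or few reads in *Mef2c* f/f cortex were expressed in every Mef2c-cKO library. *Tbx20*, a T-box transcription factor best known from heart development (chr9:24718138-24774303), had 0 reads in all 4 *Mef2c* f/f libraries and 44.8, 56.7 and 37.2 rescaled CPM in Mef2c-cKO. With 3 reads per library as the floor, it was at least 477-fold higher. *Olfr1510*, an olfactory receptor gene (chr14:52409131-52414373), also had 0 reads in every *Mef2c* f/f library and 28.3, 27.3 and 23.1 in Mef2c-cKO, at least 271-fold higher by the same floor. Both were absent or nearly absent from WT libraries in CS, where the highest values were 0.0102 for *Tbx20* and 0 for *Olfr1510*. These floors and the intervals that follow cover counting error only.

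The 5 other rises of this kind started from a handful of reads in all 4 floxed libraries together. *Asic5*, a channel of the acid-sensing family, had 4 reads in *Mef2c* f/f and 4030 in Mef2c-cKO, a pooled ratio of 1111 (95% interval 434 to 4081). Its knockout libraries differed among themselves, with 10.4, 50.3 and 36.5 in replicates 05, 07 and 08. *Acoxl*, which encodes an acyl-CoA oxidase-like protein, had 6 and 1948 reads, a ratio of 358 (164 to 977). *Sult6b1*, of the sulfotransferase family, had 9 and 824 reads, a ratio of 101 (52.9 to 222). *Vsig8*, an immunoglobulin-domain gene, had 11 and 494 reads, a ratio of 49.5 (27.4 to 99.9). *Asmt*, the enzyme of the last step of melatonin synthesis, had 28 and 642 reads, a ratio of 25.3 (17.3 to 38.4).

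Other large rises began from a clear level in *Mef2c* f/f. *Susd6*, a sushi-domain membrane protein (chr12:80790510-80880835), went from 70.9, 68.5, 67.6 and 59.00 in *Mef2c* f/f to 500.0, 508 and 479.6 in Mef2c-cKO (log2 fold change 2.89 ± 0.09, adjusted p = 2.62e-07). *Fhl1*, a LIM-domain protein of muscle (chrX:56731787-56793346), stood at 39.2, 40.1, 48.3 and 38.1 and then at 401, 436 and 265 (log2 fold change 3.11 ± 0.17, adjusted p = 1.87e-05). *Cemip*, which takes part in the breakdown of hyaluronan (chr7:83932857-84086502), went from 42.4, 50.6, 60.7 and 57.2 to 403, 353 and 312 (log2 fold change 2.75 ± 0.14, adjusted p = 1.41e-05). In each of these the lowest knockout library was more than 5 times the highest floxed one. *Mtmr7*, a phosphoinositide phosphatase of the myotubularin family (log2 fold change 2.21 ± 0.09, adjusted p = 2.14e-06), and *Kctd3*, a BTB-domain protein (1.90 ± 0.10, adjusted p = 1.87e-05), had narrow spreads in both groups. *Mtmr7*, *Cemip* and *Kctd3* held in all 7 fits that left out a library. *Mtmr7* stood at 103, 106, 111 and 104 in *Mef2c* f/f and at 547, 465 and 467 in Mef2c-cKO. *Kctd3* stood at 70.2, 80.9, 85.05 and 92.95 and at 313, 299 and 310.1.

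Further genes among the 15 largest rises differ in what they encode. *Col4a6*, a chain of basement membrane collagen IV (chrX:141165403-141474076), went from 2.89, 2.18, 3.801 and 2.76 to 27.9, 40.5 and 37.6 (log2 fold change 3.40 ± 0.19, adjusted p = 2.14e-05). *Myof*, a ferlin of the plasma membrane, went from 7.12, 6.62, 6.802 and 7.57 to 80.4, 46.1 and 53.5 (2.97 ± 0.17, adjusted p = 3.21e-05). *Diaph3*, a formin that nucleates actin filaments, went from 4.52, 5.71, 10.6 and 7.005 to 74.3, 63.9 and 76.9 (3.33 ± 0.23, adjusted p = 0.000153). *Ndst4*, an enzyme that sulfates heparan sulfate (chr3:125404076-125728899), stood at 8.802, 21.1, 9.903 and 2.97 in *Mef2c* f/f and at 95.2, 95.3 and 75.2 in Mef2c-cKO (3.26 ± 0.49, adjusted p = 0.00844). WT libraries in CS had 79.6 to 198 for *Ndst4*, so here 2 of 3 knockout libraries lay within the WT range, the other just below it, and all 4 floxed ones well below it. *Skint6*, of a gene family expressed in skin and thymus, had 0.643, 0.905, 0.975 and 1.02 and 2.53, 17.4 and 14.4 (2.76 ± 0.53, adjusted p = 0.0209), and it was not a DEG without Mef2c-cKO replicate 07 or without *Mef2c* f/f replicate 02. The other 14 of the 15 largest rises were DEGs in all 7 fits that each left out 1 library and under every alternative in processing that tested them. All 15 were also DEGs, in the same direction, in the mice deprived of sleep, where 9.1% of all genes tested were higher DEGs.

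**Figure D2:**
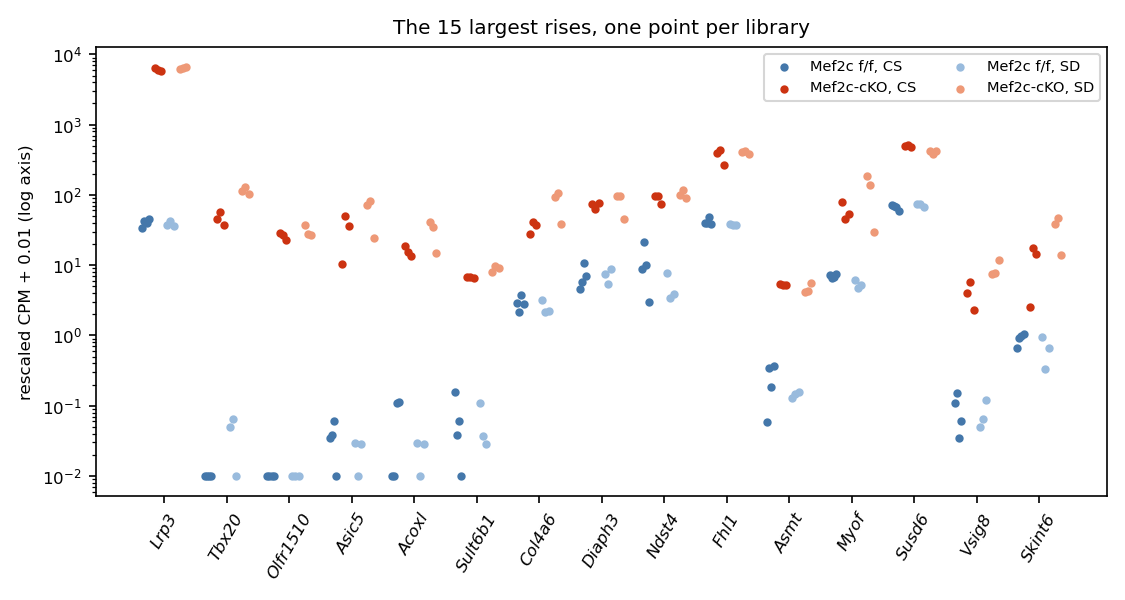
Rescaled CPM + 0.01 on a log axis for the 15 genes with the largest rises among DEGs whose groups did not overlap, 1 point per library, in 4 groups: Mef2c f/f and Mef2c-cKO in CS (dark) and after SD (light). Points on the lowest line have 0 reads, and for each gene all knockout points lie above all floxed points in both sleep conditions.

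The largest falls were smaller than the rises, mostly in genes of low level. *Entpd4*, a nucleotidase of the Golgi (chr14:69337174-69367270), had 3.81, 5.03, 4.801 and 11.9 in *Mef2c* f/f and 0 reads in every Mef2c-cKO library, at least 86.9-fold lower with 3 reads per library as the floor. *Gstp2*, a glutathione S-transferase (chr19:4040285-4046023), had 407 reads in *Mef2c* f/f and 8 in Mef2c-cKO, a ratio of 46.1 (23.2 to 108). Reads of *Entpd4*, *Gstp2*, *Srp54a*, *Hist1h4k* and *Hbb-bt* can be shared with near-identical copies, and only uniquely mapped reads were counted, so their levels are uncertain. *Srp54a*, of the signal recognition particle, went from 2.62, 1.64, 2.601 and 5.06 to 0.657, 0.589 and 0.664 (log2 fold change -1.53 ± 0.30, adjusted p = 0.0212), and *Hist1h4k*, a histone H4 gene, from 6.18, 8.83, 10.1 and 12.9 to 1.26, 3.25 and 2.21 (-1.89 ± 0.29, adjusted p = 0.00975). *Entpd4*, *Gstp2* and *Hist1h4k* held in all 7 fits that left out a library.

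The 15 largest falls included *Igfn1*, *Mylk3*, *Tcap* and *Tnnc1*, put together here after their values were seen, while *Fhl1* and *Tbx20*, also known from muscle or heart, were among the 15 largest rises. *Igfn1*, an immunoglobulin and fibronectin protein of skeletal muscle (chr1:135953578-136006342), went from 36.2, 46.1, 23.2 and 28.5 to 12.7, 6.81 and 1.33 (log2 fold change -2.55 ± 0.56, adjusted p = 0.0312). *Mylk3*, the cardiac myosin light chain kinase (chr8:85324303-85386345), went from 6.503, 6.76, 5.03 and 5.06 to 1.74, 1.01 and 0.811 (-1.93 ± 0.22, adjusted p = 0.00332). *Tcap*, which caps titin at the sarcomere's end, went from 2.55, 2.23, 2.08 and 3.22 to 1.09, 0.353 and 0.172 (-1.63 ± 0.30, adjusted p = 0.0185), and *Tnnc1*, the slow and cardiac troponin C, from 4.65, 7.100, 8.93 and 8.897 to 3.46, 1.32 and 2.16 (-1.52 ± 0.30, adjusted p = 0.0212). All 4 were lower in the knockout after SD as well, at -2.94, -1.87, -2.27 and -2.07 in the same order. *Mylk3* was a DEG in all 7 fits that left out a library. Without Mef2c-cKO replicate 07 or *Mef2c* f/f replicate 02, *Igfn1*, *Tcap* and *Tnnc1* were not DEGs. *Igfn1* was also lost without *Mef2c* f/f replicates 01, 03 or 04 and with no filter on low values, and it held in 2 of the 7 fits. *Tnnc1* was also lost without *Mef2c* f/f replicate 03.

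*Efna5*, ephrin-A5, a membrane-bound guidance ligand (chr17:62604184-62881317), had the highest level among the 15 falls and went from 219, 224, 246 and 225 to 74.1, 91.9 and 112 (log2 fold change -1.32 ± 0.13, adjusted p = 0.00177). The groups were far from overlapping, and after SD the log2 fold change was -1.15. *Col26a1*, a collagen (-1.33 ± 0.23, adjusted p = 0.0152), *Tspan11*, a tetraspanin (-1.88 ± 0.37, adjusted p = 0.0216), and *Olfr78*, an olfactory receptor (-1.43 ± 0.26, adjusted p = 0.0171), fell in both sleep conditions. None of these 3 was a DEG without *Mef2c* f/f replicate 02, nor were *Tspan11* and *Olfr78* without Mef2c-cKO replicate 07. *Glp2r*, a glucagon-like peptide receptor, had 7.81, 6.85, 4.83 and 18.1 in *Mef2c* f/f and 1.67, 1.91 and 3.34 in Mef2c-cKO (-1.70 ± 0.39, adjusted p = 0.0360), but in WT it was at 0.982 to 1.75 and after SD its log2 fold change was 0.09. It was not a DEG without Mef2c-cKO replicates 05 or 07 or *Mef2c* f/f replicates 01 or 02.

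Among genes of red blood cells, *Hbb-bt* and *Alas2* were lower in Mef2c-cKO in CS. *Hbb-bt*, a beta-globin, went from 22.4, 15.05, 17.1 and 16.6 to 5.49, 7.54 and 1.03 (log2 fold change -2.11 ± 0.48, adjusted p = 0.0348), and *Alas2*, the first enzyme of heme synthesis in red cells, from 4.52, 4.53, 5.23 and 4.09 to 1.57, 2.57 and 0.393 (-1.51 ± 0.36, adjusted p = 0.0387). Of 7 red blood cell genes tested, 2 fell and 0 rose by limma, with 5 falls and 0 rises at p of 0.05 or lower before adjustment, 1 fall by edgeR and 2 by DESeq2. The list's median was -1.64, and 0.10 over the 3 members with at least 5 CPM in every library, of which 0 were DEGs by limma. Mef2c-cKO replicate 08 was the lowest library for both genes, and without it the list's median was -0.88. *Hbb-bt* was not a DEG without any one of the 4 floxed libraries, and *Alas2* not without any of these or without Mef2c-cKO replicate 05. After SD their log2 fold changes were 0.23 and 0.28, and neither was a DEG. The difference between the sleep conditions was not tested.

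Potassium channel genes, which set the resting potential and the repolarization of neurons, had more falls than rises. Of 63 tested, 13 fell (20.6%) and 1 rose (1.59%) in Mef2c-cKO, beside 4.5% and 3.17% of all genes. The median log2 fold change was -0.28 beside 0.03 for all genes. *Kcnq3*, a subunit of the M-current (chr15:65986387-66286642), went from 743, 848, 956 and 860.4 to 448, 479 and 424 (log2 fold change -0.92 ± 0.11, adjusted p = 0.00407). *Kcnh5*, of the ether-a-go-go family (chr12:74897220-75177332), went from 194, 187, 223 and 184 to 128, 108 and 104 (-0.80 ± 0.11, adjusted p = 0.00556). Its relative *Kcnh1* (chr1:192190774-192510159) was the one rise, from 255, 281, 329 and 317 to 473, 457 and 382 (0.57 ± 0.12, adjusted p = 0.0281). Both kept their direction after SD, at -0.71 for *Kcnh5* and 0.77 for *Kcnh1*.

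*Kcnc1* and *Kcnc2*, delayed rectifiers of the Kv3 family that let interneurons fire at high rates, were lower. *Kcnc2* went from 310.2, 316, 357 and 294 to 192, 205 and 205 (log2 fold change -0.67 ± 0.09, adjusted p = 0.00602), and *Kcnc1* from 107, 125, 138 and 133 to 94.2, 86.7 and 80.8 (-0.52 ± 0.11, adjusted p = 0.0244). *Kcnma1*, the calcium-activated BK channel, fell by a log2 fold change of 0.83 ± 0.15 (adjusted p = 0.0171). *Kcnj9*, a subunit of the G-protein-gated inward rectifier (chr1:172320501-172329318), went from 113, 132, 108 and 134 to 78.5, 89.6 and 66.7 (-0.64 ± 0.12, adjusted p = 0.0212). *Kcnk4*, a mechanosensitive leak channel, went from 11.7, 9.45, 8.402 and 9.51 to 5.51, 5.16 and 3.39 (-0.9998 ± 0.18, adjusted p = 0.0171). Other falls were *Kcnip4* (-0.77), *Kcng3* (-0.77), *Kcnk12* (-0.74), *Kcnq5* (-0.61) and *Kcna2* (-0.35). After SD, 21 potassium channel genes fell and 6 rose, where 5.99% of all genes were lower DEGs and 9.1% higher. The count of falls in CS was 3 without *Mef2c* f/f replicate 02, 4 without Mef2c-cKO replicate 07 and at most 12 without any one library. *Kcnq3*, *Kcnh5* and *Kcnc2* were DEGs in all 7 such fits.

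Among sodium, calcium and HCN channels, which start and shape action potentials and release, 6 of 29 genes fell (20.7%) and 1 rose (3.45%). The shares of all genes were 4.5% and 3.17%, and the list's median was -0.17. *Cacna1a*, the pore of P/Q-type calcium channels at nerve terminals (chr8:84388440-84640246), went from 238, 291, 295 and 325 to 148, 149.7 and 184 (log2 fold change -0.83 ± 0.13, adjusted p = 0.00899). *Cacna1b*, the N-type pore, fell as well (-0.58), with the auxiliary subunits *Cacnb4* (-0.54) and *Cacna2d3* (-0.52). The sodium channel genes *Scn1a*, the main one of interneurons, and *Scn8a*, of the axon's initial segment, fell by log2 fold changes of 0.47 and 0.49. *Hcn4*, a pacemaker channel of low level here, went from 1.805, 1.53, 2.85 and 1.94 to 4.07, 3.63 and 4.105 (0.83 ± 0.20, adjusted p = 0.0382). All 7 kept their direction and were DEGs after SD. Without Mef2c-cKO replicate 07 none of the list fell at this threshold, and *Cacna1a* was the single one of the 7 to be a DEG in the other 6 such fits.

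Of the genes for presynaptic release, 6 of 42 fell (14.3%) and 1 rose (2.38%), beside 4.5% and 3.17% of all genes. The list's median was -0.22. *Rims1*, a scaffold of the active zone that recruits calcium channels (chr1:22286251-22805994), went from 1031, 1104, 1142 and 1068 to 528, 685 and 619 (log2 fold change -0.84 ± 0.11, adjusted p = 0.00602). Its relative *Rims2* (-0.53) and the active zone protein *Erc2* (-0.65) fell too, as did the calcium sensors of release *Syt2* (-0.96) and *Syt7* (-0.58) and the vesicle priming gene *Cadps2* (-0.48). *Sv2c*, a synaptic vesicle protein (chr13:95954594-96132577), rose from 39.7, 33.2, 35.96 and 38.4 to 83.8, 53.6 and 58.5 (0.79 ± 0.15, adjusted p = 0.0195). *Rims1* was a DEG in all 7 fits that left out a library, whereas the list's falls numbered 1 without *Mef2c* f/f replicate 02 and 2 without Mef2c-cKO replicate 07.

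On the receiving side, most glutamate receptor genes were not called, and how the called ones were divided between pore-forming and auxiliary subunits was not tested. The pore-forming AMPA receptor genes *Gria1* to *Gria4* had log2 fold changes of -0.10, -0.02, -0.20 and -0.40, and none passed the test. *Cacng2*, stargazin, which carries AMPA receptors to the synapse (chr15:77991748-78120028), went from 81.05, 75.2, 73.9 and 80.02 to 56.2, 46.2 and 48.1 (log2 fold change -0.63 ± 0.09, adjusted p = 0.00793). *Cacng3*, of the same family, went from 98.6, 111, 129 and 119 to 79.4, 67.8 and 57.1 (-0.75 ± 0.13, adjusted p = 0.0152), and *Gsg1l*, another auxiliary subunit, fell by 0.65. *Cnih2*, a cornichon that slows receptor closing (chr19:5092868-5098521), rose from 32.7, 33.4, 33.5 and 36.00 to 41.8, 54.4 and 52.4 (0.53 ± 0.11, adjusted p = 0.0229). In all, 3 of 23 AMPA receptor genes fell and 1 rose (median -0.10, and -0.19 without *Mef2c* f/f replicate 01 and -0.03 without replicate 03), and 1 of 13 NMDA and kainate receptor genes fell (median -0.28). Both lists had 1 rise and 5 falls by DESeq2, and with correction for GC content and length the NMDA and kainate list had 1 rise and 4 falls. The 1 fall by limma was *Grin2a*, the NMDA receptor subunit of mature synapses (chr16:9567898-9995560), from 976, 1139.7, 1394 and 1300.3 to 620.4, 698 and 801 (-0.76 ± 0.15, adjusted p = 0.0218). Of 10 metabotropic glutamate receptor genes *Grm3* fell (-0.61), and the list's median of -0.15 was 0.01 after correction for gene span and -0.08 without *Mef2c* f/f replicate 03. Of 16 GABA receptor genes 0 passed limma's threshold, with 1 rise and 4 falls at p of 0.05 or lower before adjustment, 1 fall by edgeR, and 1 rise and 3 falls by DESeq2. Over all genes, 3557 of 12681 had such a p before adjustment. *Cacng2* was a DEG without any one library, whereas *Cacng3* and *Grin2a* were not without Mef2c-cKO replicate 07 or *Mef2c* f/f replicate 02.

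Scaffolds of the postsynaptic density had a median of -0.30, and 3 of 22 fell (13.6%), beside 4.5% of all genes. *Kalrn*, a guanine nucleotide exchange factor that enlarges spines (chr16:33969073-34573532), went from 1361, 1597, 1881 and 1843 to 801, 958 and 958 (log2 fold change -0.88 ± 0.15, adjusted p = 0.0132). *Dlgap1*, which links PSD-95 to Shank (-0.69), and *Iqsec2*, an Arf exchange factor (-0.44), were the others. Genes of adhesion across the synapse had 5 falls (13.9%) and 3 rises (8.33%) among 36, beside 4.5% and 3.17% of all genes. Their median of -0.10 was -0.20 without *Mef2c* f/f replicate 01 and -0.15 without Mef2c-cKO replicate 07. The falls were *Ptprd*, a presynaptic receptor phosphatase (-0.79), the leucine-rich repeat proteins *Lrrtm4* (-0.72), *Lrrtm3* (-0.55) and *Lrrc4c* (-0.61), and *Flrt2* (-0.52). The rises were *Lrrtm1* (0.47) and the secreted cerebellins *Cbln1* (1.31) and *Cbln2* (0.48). With CPM as deposited the medians of the AMPA receptor and adhesion lists were 0.00, which is below the median of all genes under that scaling. Without Mef2c-cKO replicate 07, or without *Mef2c* f/f replicate 02, 0 genes of the scaffold and adhesion lists fell at this threshold.

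**Figure D3:**
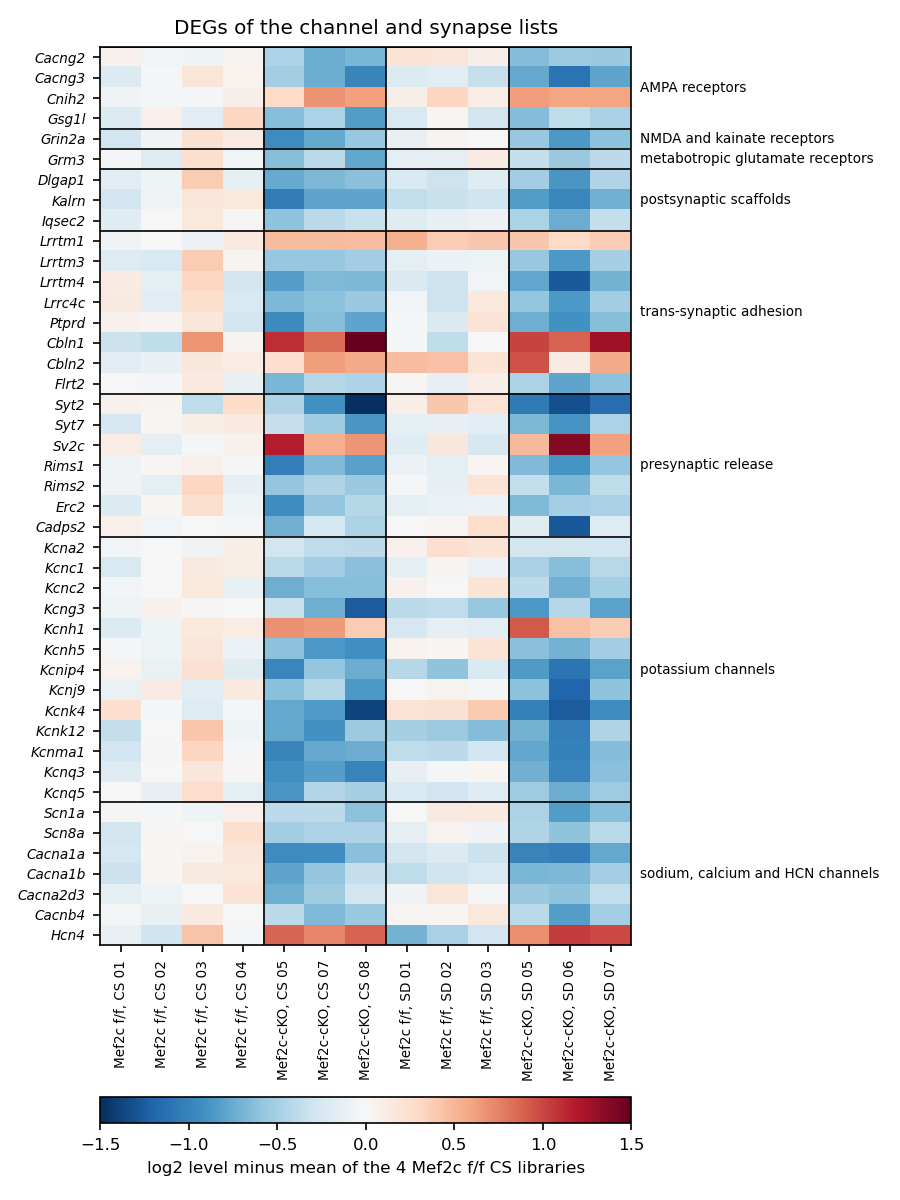
Rows are DEGs of 8 lists of channel and synapse genes and each column is a library of floxed or knockout mice in CS or SD, and the color is the log2 level minus the mean of the 4 Mef2c f/f CS libraries (blue lower, red higher, cut at 1.5). The 3 Mef2c-cKO CS columns are blue for most rows, and the 3 Mef2c-cKO SD columns, which did not enter the choice of genes, are mostly blue as well. Because the reference is the floxed CS mean, color in the Mef2c-cKO SD columns holds genotype and sleep loss together.

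Among genes that regulate MEF2 or act with it, 3 of 14 fell (21.4%) and 0 rose, beside 4.5% and 3.17% of all genes. There were 0 rises also at p of 0.05 or lower before adjustment and by edgeR and DESeq2. *Hdac7*, a class IIa histone deacetylase that binds and represses MEF2 (chr15:97792664-97844502), went from 27.3, 27.5, 26.7 and 25.8 to 13.98, 17.5 and 12.4 (log2 fold change -0.87 ± 0.12, adjusted p = 0.00662). *Rcan2*, an inhibitor of calcineurin (chr17:43801351-44039516), went from 264, 259, 243 and 273 to 173, 142 and 148 (-0.75 ± 0.09, adjusted p = 0.00407). *Cabin1*, which represses both calcineurin and MEF2, fell by 0.39 (adjusted p = 0.0467) and was a DEG in 1 of the 7 fits without a library, whereas *Hdac7* and *Rcan2* were in all 7. The related factors *Mef2a* and *Mef2d* had log2 fold changes of 0.14 and -0.04 and did not pass the test. Of 13 genes widely described as MEF2 targets, 8 of which stand in other lists as well, *Arc* (0.41), *Bdnf* (0.05), *Nr4a1* (-0.46) and *Pcdh10* (0.02) among them, 0 were DEGs in either direction by limma or edgeR and 0 had p of 0.05 or lower before adjustment, while DESeq2 called 1 rise. Of 27 immediate early genes, 0 were DEGs by limma and edgeR, and DESeq2 called 3 rises and 1 fall. At p of 0.05 or lower before adjustment, which 3557 of all 12681 genes reached, 5 of these early genes rose and 1 fell. Their median was 0.26, and -0.15 with array quality weights, 0.15 without Mef2c-cKO replicate 05 and 0.17 without *Mef2c* f/f replicate 01, with *Fos* at 0.75 and *Npas4* at -0.70.

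Genes of the circadian clock, which time transcription over the day, had 4 falls (22.2%) and 0 rises among 18 tested and a median of -0.21. Of all genes 4.5% fell and 3.17% rose. *Rora*, a nuclear receptor (chr9:68653786-69388246) that activates *Arntl*, went from 681, 820.5, 819.8 and 841 to 366, 360.1 and 393 (log2 fold change -1.08 ± 0.11, adjusted p = 0.00167). *Arntl*, which encodes BMAL1 (chr7:113207465-113314126), went from 63.3, 63.9, 70.9 and 73.7 to 49.5, 52.3 and 40.8 (-0.52 ± 0.11, adjusted p = 0.0263), and its partner gene *Npas2* from 118, 122, 141 and 147 to 76.2, 95.6 and 106 (-0.51 ± 0.13, adjusted p = 0.0467). *Ciart*, a repressor in the same loop, fell by 0.77. *Per1*, *Per2*, *Cry1* and *Dbp* had log2 fold changes of -0.10, -0.20, -0.04 and 0.07 and did not pass the test. The summed level of the list was 2244 to 2372 in *Mef2c* f/f and 1675 to 1704 in Mef2c-cKO, with no overlap. *Rora*, at 681 to 841 and at 360.1 to 393, is a large part of this sum and of its fall. Sums of other lists did not overlap either, among them potassium channels (lower) and neuropeptides (higher), so this is not particular to clock genes. *Rora* and *Zbtb16* were DEGs in all 7 fits that left out a library, *Arntl* and *Ciart* were in 1 each and *Npas2* in 2, and the list's falls numbered 1 to 3 in them. By edgeR 0 clock genes rose and by DESeq2 0, with 1 rise at p of 0.05 or lower before adjustment. *Zbtb16*, a zinc finger repressor and known target of the glucocorticoid receptor (chr9:48654297-48836222), went from 100.2, 110.4, 124 and 117 to 46.4, 47.7 and 56.3 (-1.16 ± 0.10, adjusted p = 0.000990). It was the single DEG of 18 glucocorticoid response genes, whose median of 0.14 was 0.08 without *Mef2c* f/f replicate 03 and 0.04 without Mef2c-cKO replicate 08, where the list summed to 1592 rescaled CPM beside 861 to 975 in the other 6 libraries. Its WT level in CS was 47.7 to 77.4, so the 3 knockout libraries lay at or near the low end of the WT range and all 4 floxed ones above it.

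Guidance genes had 4 falls (6.35%) and 1 rise (1.59%) among 63, beside 4.5% and 3.17% of all genes. Their median was 0.02, which was just below 0 with TMM factors and -0.04 to 0.07 without single libraries. Besides *Efna5*, the falls were the ligands *Slit3* (-0.80) and *Slit2* (-0.55) and the receptor *Epha10* (-0.80), and the ligand *Sema3a* rose (0.41). Of 26 cadherins and protocadherins, *Cdh6* fell, from 43.3, 45.5, 48.4 and 45.7 to 28.9, 23.2 and 25.2 (-0.82 ± 0.10, adjusted p = 0.00380). Of 32 factors and markers of cortical layers, 4 fell (12.5%) and 1 rose (3.1%). *Cux1* and *Cux2*, of the upper layers, fell by log2 fold changes of 0.44 and 0.44, *Rasgrf2*, also of the upper layers, fell by 0.60, and *Rspo1* fell by 1.26, while *Nxph4*, of the deepest layer, rose (0.97). Among 13 excitatory neuron genes *Arpp21* fell (-0.46). In bulk tissue fewer cells of a type and less RNA per cell cannot be told apart. *Cdh6* and *Efna5* were DEGs in all 7 fits that left out a library, *Nxph4* and *Arpp21* in 0 of them.

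Neuropeptide genes had a median of 0.65, with 3 rises (15%) and 0 falls among 20, beside 3.17% and 4.5% of all genes. At p of 0.05 or lower before adjustment 11 rose and 0 fell. *Scg2*, a granin of dense-core vesicles (chr1:79434669-79440120), went from 122, 112, 133 and 110.4 to 193, 174 and 259 (log2 fold change 0.79 ± 0.14, adjusted p = 0.0153). *Pdyn*, prodynorphin, went from 10.5, 7.18, 7.73 and 9.66 to 25.00, 14.8 and 14.8 (0.99 ± 0.21, adjusted p = 0.0268), and *Nts*, neurotensin, from 0.519, 0.707, 0.275 and 0.307 to 7.33, 4.76 and 1.47 (2.21 ± 0.42, adjusted p = 0.0207). WT libraries in CS had 4.64 to 8.40 for *Nts*, a range that held 2 of the 3 knockout libraries. Markers of the striatum, where *Pdyn* is abundant, summed to 1104 to 1727 in *Mef2c* f/f and to 1884, 1254 and 852 in Mef2c-cKO replicates 05, 07 and 08, and their part in the *Pdyn* result was not tested. After SD, 7 neuropeptide genes rose and 0 fell, where 9.1% of all genes were higher DEGs and 5.99% lower. By edgeR 0 fell in CS and by DESeq2 0. In CS 0 rose without *Mef2c* f/f replicate 02 and 1 without Mef2c-cKO replicate 07. *Gad2*, which makes GABA in interneurons, rose from 139, 128, 154 and 150.4 to 241, 198 and 209 (0.59 ± 0.10, adjusted p = 0.0152). It was 1 of 2 DEGs among 24 inhibitory neuron genes, and the other fell. The list's median of 0.21 was 0.07 without Mef2c-cKO replicate 05. At p of 0.05 or lower before adjustment 7 of its genes rose and 5 fell. With correction for GC content and length, or for gene span, the list had 1 rise and 3 falls.

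Some genes of oligodendrocytes, the myelinating cells, rose in CS. Of 20 genes, 6 rose (30%) and 0 fell, beside 3.17% and 4.5% of all genes. The median was 0.30, and at p of 0.05 or lower before adjustment the count was 9 and 0. *Cldn11*, a tight-junction protein of myelin (chr3:31149920-31164324), went from 74.03, 62.2, 61.4 and 67.9 to 115, 114 and 142 (log2 fold change 0.89 ± 0.11, adjusted p = 0.00407). *Enpp6*, of newly formed oligodendrocytes, went from 7.47, 6.19, 6.602 and 6.596 to 13.4, 12.9 and 10.7 (0.83 ± 0.13, adjusted p = 0.00904), and *Cnp*, a myelin enzyme, from 139, 134, 126 and 160.3 to 219, 220.4 and 194 (0.59 ± 0.10, adjusted p = 0.0149). *Mal* (0.63), *Ugt8a* (0.57) and *Mog* (0.48) were the other rises. The list summed to 2238 to 2627 rescaled CPM in *Mef2c* f/f and to 3414, 3518 and 2777 in Mef2c-cKO replicates 05, 07 and 08. The abundant myelin gene *Mbp* had a log2 fold change of 0.29 and did not pass the test. After SD 1 gene of the list rose and 1, *Mog*, fell (-0.42), and the median was -0.02. The difference between the sleep conditions was not tested. By edgeR 0 fell in CS and by DESeq2 0. *Cldn11* was a DEG in all 7 fits that left out a library, and the list had 1 rise without Mef2c-cKO replicate 07 and 3 without *Mef2c* f/f replicate 02.

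Some lists of other cell types gave DEGs, where 3.17% of all genes were higher and 4.5% lower. *Aqp4*, the water channel of astrocyte endfeet, went from 74.1, 70.8, 80.1 and 59.7 to 139, 146 and 281 (log2 fold change 1.33 ± 0.23, adjusted p = 0.0149) and was the only DEG of 15 astrocyte genes. Its highest value was in Mef2c-cKO replicate 08, the library with the highest microglial sum, and the part of that library's cell makeup was not tested. For microglia 15 of 15 genes tested had a log2 fold change above 0, with a median of 0.70 that was 0.31 without Mef2c-cKO replicate 08 and 1.06 without replicate 05, but 0 were DEGs by limma, while 9 rose at p of 0.05 or lower before adjustment, 2 by edgeR and 6 by DESeq2. Of 12 genes of the olfactory bulb and its neuroblasts, *Sox11* rose, from 15.9, 12.5, 12.3 and 8.49 to 28.99, 25.7 and 29.5 (1.19 ± 0.18, adjusted p = 0.00932), and 9 rose at p of 0.05 or lower before adjustment. The list's median was 1.73, and 0.42 over the members with at least 5 CPM in every library. Without *Mef2c* f/f replicate 03, the floxed library with the highest sum of this list, 7 rose, and without any other library 1 to 3. Of 15 meningeal genes the collagens *Col1a1* (1.20), *Col3a1* (1.09) and *Col1a2* (0.50) rose, with a list median of -0.02, which was 0.08 with CPM as deposited and -0.17 to 0.13 without single libraries. *Sox11* and *Col3a1* were DEGs in all 7 fits that left out a library, and *Aqp4* was not one without *Mef2c* f/f replicate 02. Of 13 endothelial genes *Flt1*, a VEGF receptor, fell (-0.50). Lists of pericyte and of choroid plexus genes had 0 DEGs by limma and edgeR, with 2 and 1 rises at p of 0.05 or lower before adjustment and, by DESeq2, 0 and 2. Over all genes, 3557 of 12681 had such a p before adjustment.

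Part of the genes of the ribosome and of the respiratory chain rose, by small amounts. Of 80 cytosolic ribosomal protein genes 18 rose (22.5%) and 0 fell, with a median of 0.25. Of 78 respiratory chain genes 14 rose (17.9%) and 0 fell, with a median of 0.21. The shares of all genes were 3.17% higher and 4.5% lower. Of 74 mitochondrial ribosomal protein genes 4 rose and 1 fell (median 0.15). *Rps21*, of the small subunit (chr2:180257377-180258445), went from 162, 156, 138 and 159 to 296, 267 and 233 (log2 fold change 0.78 ± 0.10, adjusted p = 0.00573), and *Ndufb2*, of complex I, from 35.3, 33.5, 29.9 and 35.02 to 57.9, 53.3 and 55.4 (0.73 ± 0.09, adjusted p = 0.00407). At p of 0.05 or lower before adjustment the rises and falls were 38 and 0 for the cytosolic ribosomal genes and 29 and 2 for the respiratory chain, and neither edgeR nor DESeq2 called a fall (0) in either list. *Rps21* and *Ndufb2* held in all 7 fits that left out a library. Ribosomal protein genes have many near-identical pseudogenes, so their levels are uncertain. These genes are short, with a median span of 3.27 kb for the cytosolic ribosomal genes and 7.46 kb for the respiratory chain. After correction of each library for a trend on gene span, 5 ribosomal and 4 respiratory chain genes were rises past the threshold, with medians of 0.04 and 0.05, and the median of the mitochondrial ribosomal list was -0.04. Both lists had 3 rises without Mef2c-cKO replicate 07. Of 32 chaperone genes 0 were DEGs by limma and edgeR, 9 rose at p of 0.05 or lower before adjustment and DESeq2 called 1 rise. Over all genes, 3557 of 12681 had such a p before adjustment.

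Across all genes, the fold change went with the length of the gene in the genome. The log2 fold change and the span had a Spearman rho of -0.37 over 12659 genes, which are not independent replicates. With genes ranked by span into 5 bins, 173 of 2534 genes rose and 16 fell in the bin of shortest genes (0.312 to 9.8 kb), and 67 of 2532 rose and 327 fell in that of the longest (87.6 to 2961 kb). The median span was 13.04 kb for DEGs that rose, 105 kb for those that fell and 28.3 kb for all genes. The bin of the longest genes, where 12.9% fell, held 18 of 29 sodium, calcium and HCN channel genes and 23 of 63 potassium channel genes. It also held 19 of 42 presynaptic, 16 of 36 adhesion and 12 of 22 scaffold genes. Length of the mature transcript had a rho of -0.25 and GC content one of 0.02. The libraries of a group differed in the same measure, with rho between span and the deviation from the mean of all 7 libraries at 0.24, 0.08, 0.54 and -0.0042 in *Mef2c* f/f replicates 01 to 04 and at -0.33, -0.43 and -0.14 in Mef2c-cKO replicates 05, 07 and 08. The groups did not overlap on it, but *Mef2c* f/f replicate 04 and Mef2c-cKO replicate 08 were closer to each other than replicates 03 and 04 of *Mef2c* f/f.

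**Figure D4:**
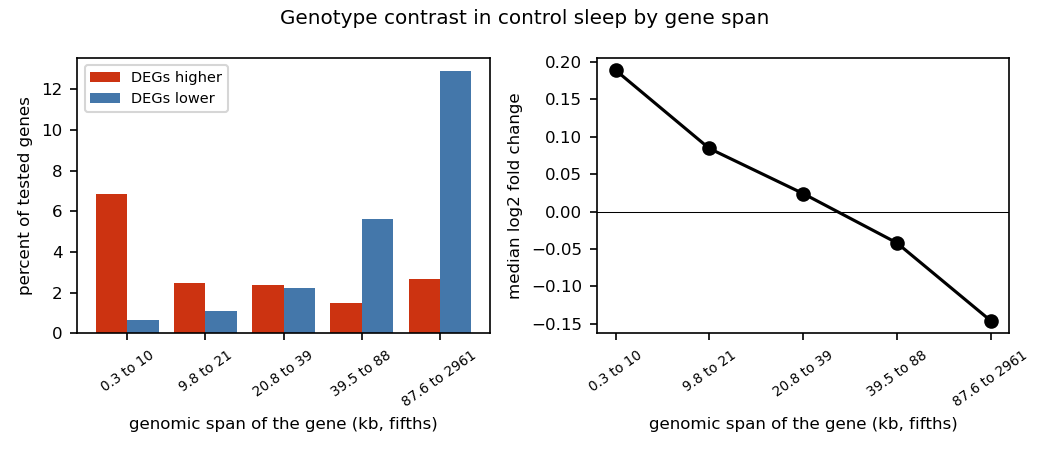
The left panel gives the percent of tested genes that were DEGs, higher (red) or lower (blue) in Mef2c-cKO, in 5 bins of genes by genomic span in kb, and the right panel gives the median log2 fold change of each bin. Rises take 6.83% of the shortest bin and falls 12.9% of the longest, and the median goes from 0.19 to -0.15.

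With each library corrected for a trend on span, a step chosen after these data were seen, 875 genes were DEGs, 281 higher and 594 lower, and 660 were shared with the uncorrected result. The large changes were little affected, at 7.08 for *Lrp3*, 2.92 for *Susd6*, 3.54 for *Col4a6* and -1.19 for *Efna5*. Potassium channels still had 11 falls and 1 rise, clock genes 4 falls and oligodendrocyte genes 5 rises. Presynaptic genes had 1 fall, that of *Rims1* (-0.62), adhesion genes 2, AMPA receptor genes 2 and sodium, calcium and HCN channels 3. *Rora* was at -0.82 (adjusted p = 0.0113).

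The mice deprived of sleep gave a second genotype contrast with no library in common. Of 12774 genes tested there, 1162 DEGs were higher (9.1%) and 765 lower (5.99%) in Mef2c-cKO. Over 12595 genes tested in both, the fold changes had a Spearman rho of 0.65. Of the genes that rose in CS, 179 of 397 (45.1%) also rose after SD, which is 16.2% of the rises there, and of those that fell 320 of 570 (56.1%) also fell, which is 42.2% of the falls there. The sign was the same for 96.4% of DEGs in CS and for 72.3% of all genes. *Mog* was the only gene called in opposite directions. Of the 15 largest falls, *Hbb-bt* (0.23), *Hist1h4k* (-0.06), *Glp2r* (0.09) and *Alas2* (0.28) did not pass the test after SD, and the other 11 fell.

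**Figure D5:**
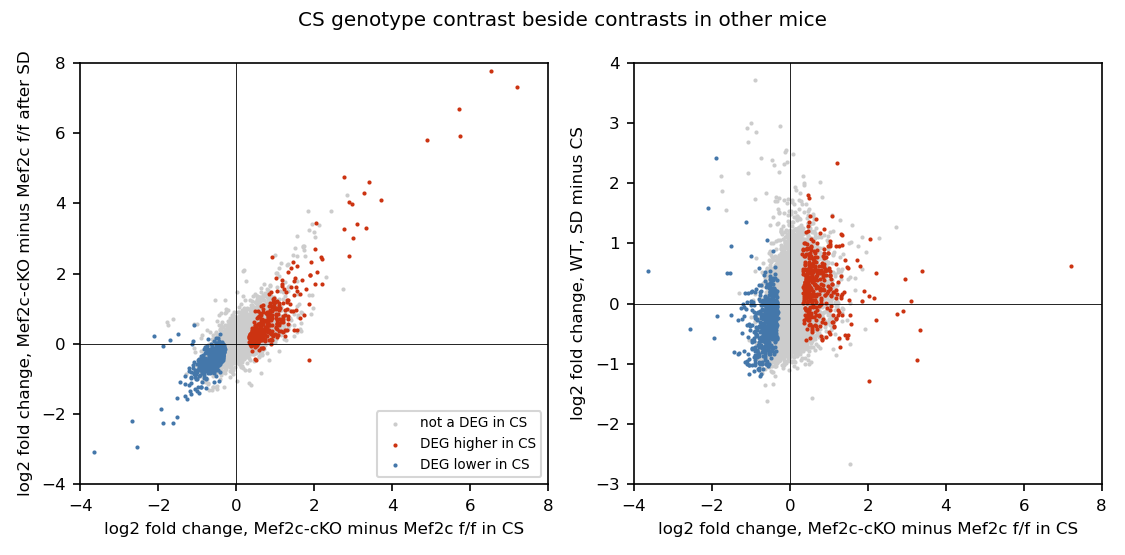
Each point is a gene tested in both contrasts, with its log2 fold change from Mef2c f/f to Mef2c-cKO in CS on the horizontal axis and, on the vertical axis, the same contrast after SD (left) or the change from CS to SD in WT mice (right), and DEGs of the CS contrast are red (higher) or blue (lower). The points follow the diagonal on the left (rho 0.65) and scatter more on the right (rho 0.30).

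The contrast of genotypes in CS can also be set beside the change that 6 hr of SD brought in WT mice, where 24.6% of 12913 genes tested rose and 20.5% fell. Over 12285 genes the fold changes had a rho of 0.30. Of the genes that rose in Mef2c-cKO, 156 of 363 (43.0%) rose and 21 fell with SD in WT, and of those that fell 257 of 566 (45.4%) fell and 21 rose. As examples chosen after their values were seen, *Rims1*, *Kcnq3*, *Kcnma1*, *Grin2a*, *Efna5* and *Rora* fell in both. Their changes in WT were -0.85, -0.63, -0.78, -0.62, -0.83 and -0.55 on the log2 scale. *Kcnc1*, *Tcap*, *Srp54a*, *Hist1h4k*, *Hbb-bt* and *Alas2* fell in Mef2c-cKO and were DEGs that rose with SD in WT. *Kcnh1*, *Diaph3* and *Ndst4* rose in Mef2c-cKO and fell with SD (-0.41, -0.44 and -0.93). Gene span had a rho of -0.55 with the change in WT, and after correction of both contrasts for span the rho between them was 0.0945. After correction of both for GC content and length it was 0.38. Without *Mef2c* f/f replicate 01 it was 0.190 with no correction.

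WT mice in CS show which of the genotypes lay nearer to the unmodified state, but the listed genes of the WT libraries sum to 938651 to 982010 CPM in CS, where those of the floxed and knockout libraries sum to 1000000. Of the 973 DEGs, the mean of *Mef2c* f/f was nearer to the WT mean for 724 (74.4%). All 3 knockout libraries lay outside the WT range for 627 DEGs, and all 4 floxed libraries for 257. It is easier for all of 3 libraries to lie outside a range than for all of 4, so these counts are not on equal terms. The same shares were not computed over all genes tested, so they are not a result about the DEGs alone. Among the 30 largest changes the floxed mean was nearer for 25, and the exceptions were *Ndst4*, *Hbb-bt*, *Hist1h4k*, *Glp2r* and *Alas2*. Differences in handling between the WT libraries and the others cannot be told apart from genotype in these values.

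The consensus site of MEF2 was searched, on both strands, in the 250 bases before each RefSeq start site (GRCm38.p6). It is its own reverse complement as a pattern, so each match counts for both strands. It was found for 190 of 9922 tested genes with such a sequence (1.91%), for 9 of 320 DEGs that rose (2.81%) and for 9 of 441 that fell (2.04%). None of 14 largest rises and 10 largest falls with a promoter held it (0 and 0). *Kcnj9* and *Arpp21*, which fell, and *Mal*, which rose, are the DEGs of the lists above that do. The sequences of *Kcnj9* and *Mal* are shown as one fall and one rise, with the match in capitals, and *Mal* was a DEG in 1 of the 7 fits that left out a library. For *Kcnj9* the window is chr1:172329323-172329572 and for *Mal* chr2:127656696-127656945, both read on the minus strand, 5′ to 3′, ending next to the start site. The match begins 118 bases before the start in *Kcnj9* and 246 bases before it in *Mal*. A match is only a run of letters in this window, and no binding was measured.

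Kcnj9 upstream: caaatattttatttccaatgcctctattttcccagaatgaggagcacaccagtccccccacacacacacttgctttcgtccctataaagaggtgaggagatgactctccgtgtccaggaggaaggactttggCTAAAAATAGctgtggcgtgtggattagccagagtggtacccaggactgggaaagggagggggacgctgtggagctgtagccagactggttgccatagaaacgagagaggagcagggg
Mal upstream: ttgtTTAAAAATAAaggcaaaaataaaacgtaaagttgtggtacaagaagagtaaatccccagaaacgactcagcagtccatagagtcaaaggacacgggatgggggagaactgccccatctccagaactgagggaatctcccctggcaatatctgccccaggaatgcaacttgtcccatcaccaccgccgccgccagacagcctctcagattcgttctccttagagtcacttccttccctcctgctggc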

How the data were processed

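Frontal cortex RNA of single mice was sequenced from TruSeq stranded mRNA libraries. Per the study's methods, the authors used Trimmomatic for trimming, STAR for alignment to mm10 and HTSeq for counts of uniquely mapped reads, and deposited edgeR's CPM, read counts scaled to 1000000 per library, in 1 table of 21565 genes and 33 libraries. Versions, the annotation release and the strand setting of the counting are not given in the sources used here, so overlapping and antisense genes are uncertain. All 711645 values (100%) were whole multiples of 1 read within 0.01 reads, so read counts and depth were recovered (18935045 to 40576940 reads per library in the *Mef2c* f/f CS group and 34597589 to 38312401 in the Mef2c-cKO CS group), and intervals and floors of 3 reads cover counting error only.

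Each library's deposited CPM were rescaled by a factor of the median-of-ratios kind, from 11570 genes over the 33 libraries. Tests ran on genes at 1 CPM or more in all libraries of either group, on log2(rescaled CPM + 0.5) with limma 3.58.1 in R 4.3.3 (moderated test with a mean trend, Benjamini-Hochberg adjustment over all genes tested), which understates fold changes of low genes. For a DEG the adjusted p was 0.05 or lower and the log2 fold change 0.3 or more in size. The scripts were tested on simulated data. Alternatives were other pseudocounts (0.1 and 1), scalings and filters, array quality weights, corrections for GC content and transcript length, edgeR 4.0.16 and DESeq2 1.42.0 on recovered reads, a fit over all floxed and knockout groups, a threshold without the fold limit, each library left out in turn and, added after the data were seen, a correction for gene span.

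Named genes were *Mef2c*, DEGs of the gene lists, the 15 largest rises and 15 largest falls among DEGs whose groups did not overlap, and the 10 DEGs with the smallest adjusted p. A few members of the lists that were not DEGs are also given, chosen after their values were seen. The comparison, the lists and the tests were chosen with earlier results of these data known. Coordinates and lengths are from GENCODE M21 (GRCm38), to which 19231 symbols matched directly and 243 by a synonym, with 26 ambiguous and 2065 not found. Promoters are from RefSeq. The floxed and knockout groups share no replicate numbers. Those of WT did not pair the samples. A few genes of the lists are counted with them but not reported here by name.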

Additional observations from a re-analysis of the deposited data

Results flagged for a closer look

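In the group of 4 *Mef2c* f/f CS libraries, 151 genes and the summed levels of 34 lists were examined for 1 library far from the other 3, by the gap to its nearest neighbour over the whole range, against Dixon's 95% critical value. Of these 13 passed, and chance alone flags about 1 in 20. Among genes they were *Entpd4* (ratio 0.848, 11.9 against 3.81 to 5.03), *Olfr78* (0.847, 3.22 against 3.73 to 3.83), *Rora* (0.865, 681 against 820 to 841), *Dlgap1* (0.857), *Rims2* (0.84, 640 against 470 to 497), *Mal* (0.893, 140 against 94.8 to 99.7) and *Mrps27* (0.99, 34.3 against 40.1 to 40.2). The low library of *Rora* lay toward the knockout values of 360 to 393 without reaching them.

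Among summed levels, 1 library was high for potassium channels (ratio 0.866), inhibitory neuron markers (0.84, 3222 against 2419 to 2547), astrocyte markers (0.947, 6164 against 5610 to 5640), meningeal fibroblast markers (0.836, 494.7 against 394.6 to 411) and olfactory bulb and neuroblast markers (0.926, 717.5 against 284.9 to 317). It was low for mitochondrial ribosomal proteins (0.847, 1506 against 1570 to 1582).

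*Mog*, a myelin surface protein, was called higher in Mef2c-cKO in CS (log2 fold change 0.478) and lower after SD (-0.421). The difference between the 2 effects was not tested.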

How the results depend on the processing

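The 973 DEGs of the genotype contrast in CS became 3402 with array quality weights, 1486 with correction for GC content and length (29.7% of them rises), 2095 with DESeq2 and 2167 in a fit over all floxed and knockout groups. Other alternatives gave 857 to 1228, and leaving out single libraries gave 171 to 875. The 1927 of the SD contrast became 1280 at a CPM of at least 5, 2972 with array quality weights and 1019 in the fit over all groups, and 822 to 2447 without single libraries (822 without *Mef2c* f/f SD replicate 01 and 948 without replicate 03). The 5825 of CS to SD in WT became 2549 with correction for GC content and length, and 4509 to 6411 without single libraries. *Mef2c* was past the threshold with array quality weights (0.50) and at 0.12 to 0.54 without single libraries. The rho of the CS contrast with that of WT was 0.0945 after span correction and 0.190 to 0.423 without single libraries. Why these counts differ was not tested. For the 150 named genes, 0 of 2065 comparisons with an alternative and 0 of 1050 with a left-out library reversed the direction, while 182 and 424 missed the threshold.

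No paired analysis was possible for genotype because the floxed and knockout groups share no replicate numbers. In WT, a replicate block gave 287 DEGs, but the numbers did not pair the samples (correlations of deviations -0.329 to 0.554, with 2 of 5 numbers matching best with their own), so the samples share only a number. A library of 18935045 reads and groups of 4 and 3 limit what small changes of low genes could be called.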

Other observations

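Rises and falls were spread over the genome. The X chromosome had 23 rises and 8 falls among 440 genes tested (5.23% and 1.82%), beside 3.17% and 4.5% of all genes. The 59 nearest tested neighbours of the 30 largest changes held 4 rises and 5 falls (6.78% and 8.47%) and had a median log2 fold change of -0.01, with a range of -2.11 to 0.72. Of these falls, *Olfr78* and *Hbb-bt* are neighbours of each other and are themselves among the 30. Their falls and the low end of the range were thus fixed by the choice of genes. Outside the 30, Tnnt2 (-1.10) fell beside *Igfn1*, named after its value was seen.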
